A study of Mus musculus with 6 samples.

Results

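Matrix proteases and their inhibitors were described in wild-type and Zmpste24-/- mouse embryonic fibroblasts. The set was 39 genes fixed by name: matrix metalloproteases (MMPs), ADAM and ADAMTS proteases, tissue inhibitors of metalloproteases (TIMPs), and serine proteases of the plasminogen and HtrA families with a receptor and an inhibitor. Of these, 36 had at least 1 probe set that carries their symbol alone, out of 18193 genes so represented on the array, and each was read from the probe set with the highest mean over the 6 arrays. Mmp15, Adamts2 and Serpine2 are not analysed here. Timp4 had signals of 19.4 to 40.4 and fell below the limit on dim probe sets (a mean of 39.4 over the arrays), so 35 genes were tested.

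RNA was hybridised to Affymetrix whole-genome mouse expression arrays, 1 array per culture. The groups were 3 cultures of genotype Zmpste24+/+ (wild type, WT) and 3 of genotype Zmpste24-/-, all of strain C57BL/6, made from E13.5 embryos and harvested at passage 3 in serum-containing medium with no further treatment. Zmpste24 encodes the zinc metalloprotease that matures prelamin A. Cultures carry a number from 1 to 3 within their genotype, and the labels call them pairs. What a number stands for, and which part of Zmpste24 is deleted, is not stated. Each number thus has 1 wild-type and 1 Zmpste24-/- array. Nothing in the labels says whether the cultures of a genotype came from separate litters, so p-values measure the spread between these cultures only.

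MMPs are zinc endopeptidases made as inactive precursors; between them they cut fibrillar collagen, denatured collagen, proteoglycans and basement membrane. TIMPs bind and block their active sites, ADAMTS proteases cut proteoglycans and trim procollagens, and ADAM proteases release the outer parts of membrane proteins. Plasminogen activators make plasmin, a serine protease that degrades fibrin and can activate several MMPs. Fibroblasts are a main source of these enzymes in connective tissue.

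The labels were checked first. Zmpste24 had a signal of 3849.9, 2249 and 2043 in wild-type cultures 1, 2 and 3 and of 365, 182 and 226 in the Zmpste24-/- cultures, and its adjusted p in limma with the replicate number as a block was 4.02e-05. Without the block its adjusted p was 0.987 (limma), so that fit did not call even Zmpste24 itself. Of 10 fibroblast markers all 10 were measured, and their summed signal was 98285 to 118540 in wild type and 94764 to 116884 in Zmpste24-/-. Xist was at 69.3 and 43.7 in wild-type cultures 2 and 3 and at 4766 to 6669 in the other 4, whereas the Y-linked Eif2s3y reached 531 and 1341 in that pair of wild-type cultures but no more than 15.7 elsewhere. For numbers 2 and 3 the genotype therefore cannot be told apart from the sex of the embryos, which the labels do not give. Arrays numbered 1 correlated with each other at r = 0.985 over tested probe sets and with the other 4 at 0.927 to 0.934, against 0.9801 to 0.987 among those 4.

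Between the genotypes no protease or inhibitor gene passed the test, which without the replicate block did not call Zmpste24 itself either. None had wild-type and Zmpste24-/- values that did not overlap, but for most of these genes the culture numbers fixed that overlap, as set out below. The differences between culture numbers were far larger: 28 of 35 genes differed between numbers, where the background was 41.6% of all tested probe sets and 47.0% of the brightest probe sets of named genes. With the dimmest 60% of probe sets left out, 27 of 32 genes differed, against a higher background of 56.5% of the probe sets then tested. Cultures numbered 1, of both genotypes, had more Mmp13, Mmp3, Mmp19, Mmp16 and Mmp2 RNA and less Plaur, Adam12 and Timp1 RNA than the other 4. The median size of the log2 difference over the 35 genes was 0.14 between genotypes, 0.86 between numbers 1 and 2, 0.81 between numbers 1 and 3, and 0.11 between numbers 2 and 3. The map of signals by array shows this as a pair of columns set off from the other 4.

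**Figure D1:**
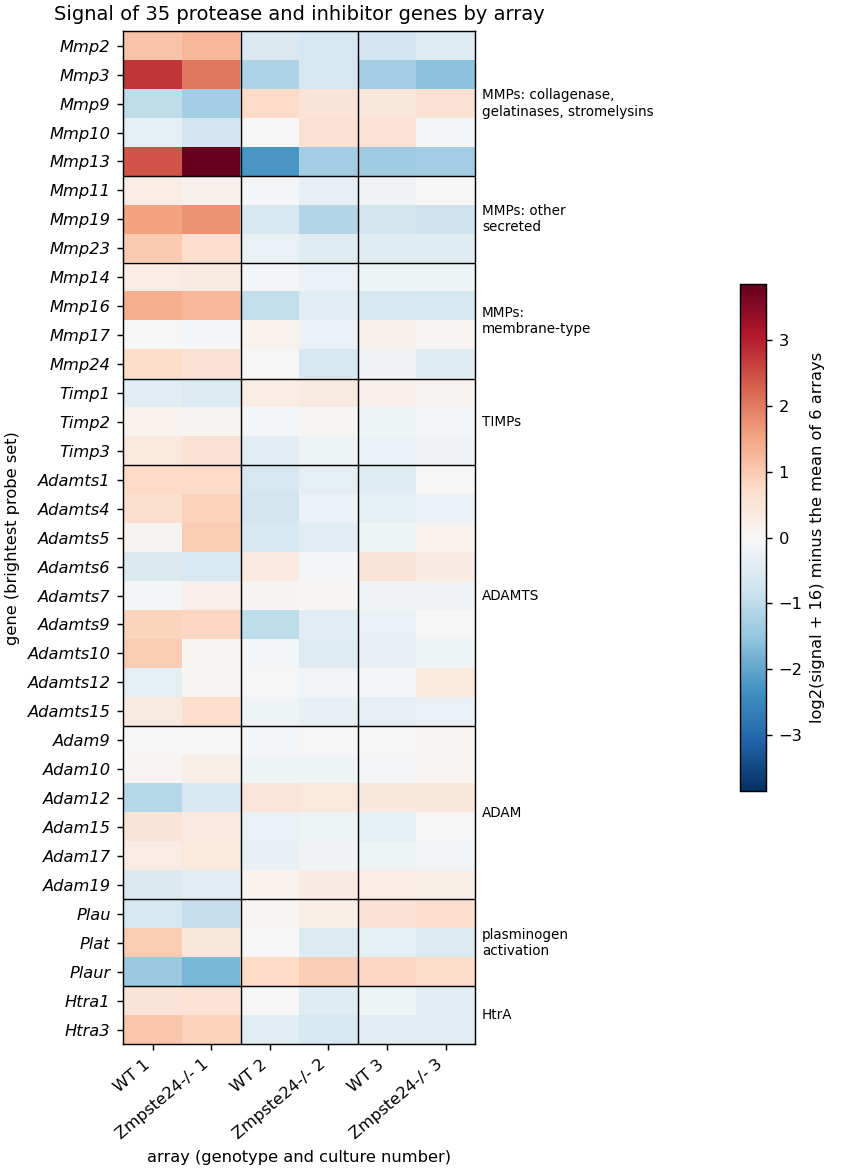
Rows are the 35 tested genes, grouped by role, and columns are the 6 arrays, ordered by culture number. Colour gives log2(signal + 16) minus the mean of that gene over the 6 arrays; both number 1 columns stand apart from the other 4 in most rows, upward for Mmp13 and Mmp3 and downward for Plaur and Mmp9, while neighbouring columns of the same number look alike.

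The genotype comparison was made on log2(signal + 16) with limma over 27022 probe sets, first without regard to culture number. At an adjusted p under 0.05, 0 of 35 genes were called (background 0% of all tested probe sets), and 0 had an unadjusted p under 0.05 (background 1.29%). With the replicate number as a block, again 0 were called (background 0.0185%), and 7 had an unadjusted p under 0.05 (background 8.99% of all probe sets, and 9.30% of the brightest probe sets of named genes). With the block the smallest adjusted p was 0.341 over the brightest probe sets of these genes, and 0.209 over all 74 of their tested probe sets, in a dimmer one of Adamts5. A p above the threshold does not show that the genotypes are alike, and differences of several standard errors could be missed after adjustment. Without the block Zmpste24 itself, at -3.31 on the log2 scale (SE 0.34), had an adjusted p of 0.987 (limma). With the block Plat, at -0.39 (SE 0.09), had an adjusted p of 0.341 (limma). Of the 35 genes, 18 had higher and 17 lower means in Zmpste24-/-, with a median log2 difference of 0.0071 against -0.0048 for all tested probe sets. In the same-numbered pairs 1, 2 and 3 the medians were -0.03, -0.0061 and 0.03. In every pair 5 genes were higher (background 15.8%) and 4 were lower (background 16%) in Zmpste24-/-. The groups did not overlap for 0 genes in either direction, where the background was 2.22% of probe sets higher and 3.03% lower. That count was largely fixed in advance by the culture numbers. Both arrays numbered 1 lay above the other 4 for 22 genes and below them for 8, and the genotype ranges of such genes must overlap. Leaving out an array numbered 1 lifts that constraint. With fewer arrays, ranges overlap less often: 9 genes did not overlap without WT replicate 1 (background 19.7%), 4 without Zmpste24-/- replicate 1 (19.2%), 2 without Zmpste24-/- replicate 2 (12.9%), 1 without Zmpste24-/- replicate 3 (9.33%), and 0 without WT replicate 2 (8.53%) or WT replicate 3 (11.3%). In the cultures numbered 2 and 3 alone 13 did not overlap (background 34.6%).

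**Figure D2:**
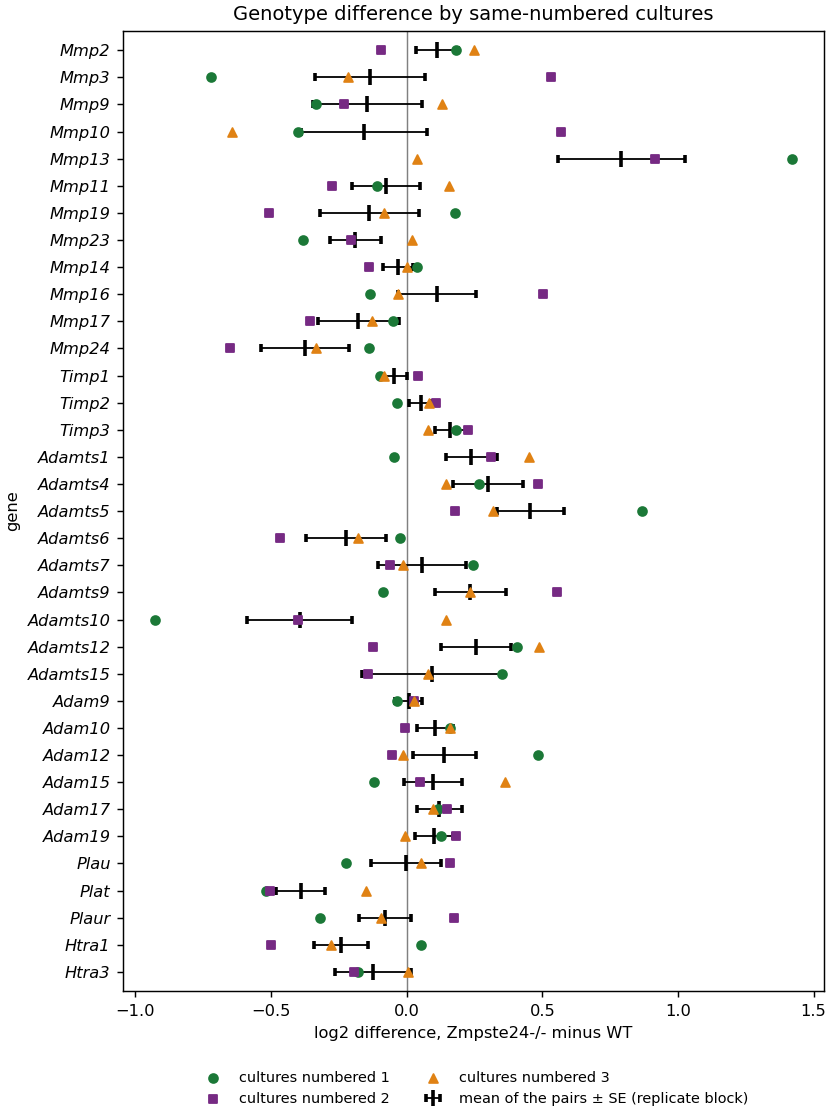
The horizontal axis is the log2 difference, Zmpste24-/- minus WT, and each row is 1 of the 35 tested genes. Circles, squares and triangles are the same-numbered pairs 1, 2 and 3, and the bar is their mean with the standard error from the fit with the replicate block; most rows straddle 0, and Mmp13 reaches 1.42 in pair 1 but 0.04 in pair 3.

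Collagenase, gelatinase and stromelysin genes are described first. Mmp13 encodes the main interstitial collagenase of rodents and is also a marker of hypertrophic cartilage. Its signal was 1596, 46.6 and 100.1 in wild-type cultures 1, 2 and 3 and 4297, 102 and 103 in Zmpste24-/- cultures 1, 2 and 3. Both cultures numbered 1 were far above the other 4, in which the signal was at most 103. The mean of number 1 was 39.6-fold that of number 2 and 29.0-fold that of number 3, and the adjusted p for culture number was 2.1e-05 (limma F-test). Between genotypes Mmp13 differed by 0.79 on the log2 scale (SE 1.76 without the block, and 0.23 with it), the largest difference of the 35 genes, with the block its unadjusted p was 0.00967 and its adjusted p 0.442 (limma). The pairs gave 1.42, 0.92 and 0.04; pair 3 showed hardly any difference. Of 8 tested markers of cartilage and bone cells, 6 had higher means in Zmpste24-/-, 4 were higher in every pair (background 15.8%), and 0 were called. Their median log2 difference was 0.10. With the block 3 of the 8 had an unadjusted p under 0.05 (background 8.99%). Col10a1, the collagen of hypertrophic cartilage, had 24.2, 26.8 and 57.3 in wild type and 74.4, 111 and 145 in Zmpste24-/-. Its wild-type mean of 36.1 lay below the limit of 39.4 set on the mean of a probe set. It passed that limit only through Zmpste24-/-, so its difference is given as a description with no test, although it is among those 3. Within each genotype Col10a1 was lowest in number 1, where Mmp13 was highest. Sp7, a transcription factor of osteoblasts, had 70.9, 49.6 and 51.9 and 90.1, 121 and 116, a log2 difference of 0.77 (adjusted p = 0.431 with the block, limma). The Sp7 values of the genotypes did not overlap (background 2.22% of probe sets higher in Zmpste24-/-). The summed signal of 9 such markers was 1135 to 1881 in wild type and 1548 to 1975 in Zmpste24-/-, and their part in the Mmp13 values was not tested.

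Mmp3 encodes stromelysin 1, which cuts proteoglycans, fibronectin and other MMP precursors. Its signal was 4959, 311 and 275 in wild type and 2999, 456 and 235 in Zmpste24-/-, in the order of culture number. It too was high in both cultures numbered 1, at 10.4-fold number 2 and 15.6-fold number 3 (adjusted p = 3.7e-05 for culture number, limma F-test). Within number 1 the wild-type culture had the higher signal of Mmp3 and the Zmpste24-/- culture the higher signal of Mmp13. Mmp10, stromelysin 2, lies in the same gene cluster and did not share the pattern. It had 124, 165 and 247 in wild type and 89.8, 252 and 152 in Zmpste24-/-, lowest in both cultures numbered 1, and its adjusted p for culture number was 0.068 (limma F-test). It passed in 5 of the alternative settings tried, among them median centring of the arrays (0.0306) and without WT replicate 2 (0.0072).

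The gelatinase genes lay in opposite directions. Mmp2, the gelatinase that fibroblasts make constitutively, had 8439.6, 2672 and 2344 in wild type and 9566, 2499 and 2790.2 in Zmpste24-/-. Number 1 was 3.48-fold number 2 and 3.51-fold number 3 (adjusted p = 1.4e-05, limma F-test), and a second probe set gave 3.82-fold and 3.99-fold. Mmp9, the inducible gelatinase also made by macrophages and osteoclasts, had 33.0, 144 and 115 and 22.9, 121 and 127. It was lowest in both cultures numbered 1. Those signals lay below the limit of 39.4 set on the mean of a probe set, which Mmp9 passed only through numbers 2 and 3, so its difference is given as a description with no fold or test.

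**Figure D3:**
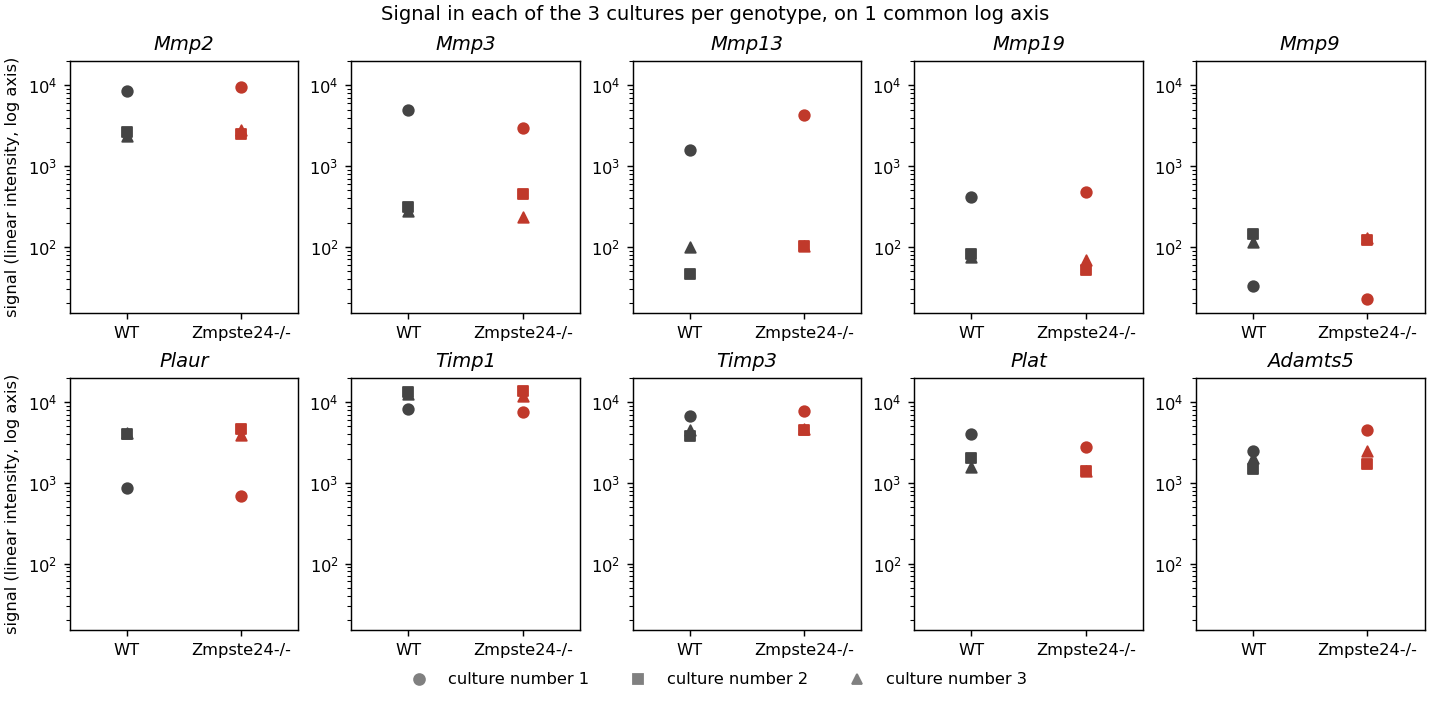
Each panel plots the deposited signal of 1 gene (linear intensity on a log axis) in the 3 WT and 3 Zmpste24-/- cultures, with the marker shape giving the culture number. In the panels of Mmp2, Mmp3, Mmp13 and Mmp19 both circles (number 1) lie above all other points, in those of Mmp9, Plaur and Timp1 they lie below them, and the genotypes overlap in every panel.

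The starts of Mmp3, Mmp10 and Mmp13, and of the urokinase receptor gene Plaur, are shown because these genes share a short motif but not a direction. RefSeq promoter windows of assembly GRCm38.p6 were at hand for 21 of the 36 genes (24 windows), and the 250 bases before each start were searched on both strands. The motif TGANTCA, the letters of an AP-1 site, was in 5 of the 24 windows (of Mmp3, Mmp10, Mmp13, Plaur and, for 1 of its starts, Adam19) and in 6.75% of 32851 windows of all genes. TATAAA was in 4 of 24 (Mmp3, Mmp10, Mmp13 and Adamts1) and in 12.4% of all, and AGGAAG, the letters of an ETS site, was in 12 of 24 and in 29.5% of all. None of these motifs overlapped in the windows shown. The motifs were chosen with the values of these genes known, and a match is neither a binding site nor a cause. The last 200 bases before each start follow, read 5′ to 3′ on the gene's strand, which is the plus strand in all of them, with all 3 motifs in capitals.
Mmp3, chr9:7445622-7445821: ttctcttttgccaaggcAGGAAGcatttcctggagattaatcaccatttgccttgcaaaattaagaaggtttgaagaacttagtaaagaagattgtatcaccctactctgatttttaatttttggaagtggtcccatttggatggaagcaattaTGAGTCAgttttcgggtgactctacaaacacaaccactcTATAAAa
Mmp10, chr9:7502142-7502341: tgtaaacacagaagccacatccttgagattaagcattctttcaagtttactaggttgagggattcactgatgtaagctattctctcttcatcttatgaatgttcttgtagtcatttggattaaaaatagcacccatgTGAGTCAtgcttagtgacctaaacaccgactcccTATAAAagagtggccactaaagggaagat
Mmp13, chr9:7272314-7272513: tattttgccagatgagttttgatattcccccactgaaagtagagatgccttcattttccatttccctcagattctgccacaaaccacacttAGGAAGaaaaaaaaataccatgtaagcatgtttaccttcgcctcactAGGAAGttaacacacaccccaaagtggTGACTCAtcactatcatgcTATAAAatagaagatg
Plaur, chr7:24462283-24462482: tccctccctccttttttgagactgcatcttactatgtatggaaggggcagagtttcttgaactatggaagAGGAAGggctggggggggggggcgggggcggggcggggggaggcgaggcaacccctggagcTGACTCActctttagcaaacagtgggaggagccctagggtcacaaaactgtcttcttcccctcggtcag

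The TGANTCA match began 46 bases before the start in Mmp3, 63 in Mmp10, 35 in Mmp13 and 69 in Plaur. Its letters were TGAGTCA in Mmp3 and Mmp10 and TGACTCA in Mmp13 and Plaur. Mmp3 and Mmp13 were highest, and Mmp10 and Plaur lowest, in the cultures numbered 1. Of 12 tested AP-1 and ETS factor genes, 7 differed between culture numbers, a share of 58.3% against a background of 47.0% of brightest probe sets, and 0 between genotypes. Fosl1, an AP-1 subunit, had 619, 2224 and 2169 in wild type and 438, 2764 and 1996 in Zmpste24-/-, with number 2 at 4.72-fold and number 3 at 3.94-fold of number 1 (adjusted p = 6.8e-05, limma F-test). Jun had 2656, 5125 and 5309.6 and 2526, 5906 and 4722, Ets1 had 883, 2357 and 2423 and 954, 2418 and 2252, and Etv4 had 34.8, 390.5 and 381 and 18.5, 398 and 254. Those 4 factor genes were lowest in both cultures numbered 1, as was Junb, while Ets2 and Etv5 were highest there. Etv4, among the 7, had a mean of 26.7 in number 1 and passed the limit on dim signals only through numbers 2 and 3. By genotype p without a block the first of this list were Jund, Fos and Etv5, at log2 differences of -0.24, 0.12 and -0.16, none of which passed.

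The other secreted MMP genes were all higher in number 1. Mmp19, which encodes an MMP of broad substrate range, had 416, 81.3 and 74.6 in wild type and 473, 52.4 and 69.6 in Zmpste24-/-, or 6.65-fold number 2 and 6.16-fold number 3 (adjusted p = 1.2e-04, limma F-test). Mmp23, whose product lacks the usual haemopexin domain, had 3378, 1379.7 and 1185 and 2587, 1194 and 1202, at 2.32-fold and 2.50-fold (adjusted p = 1.2e-04, limma F-test). Mmp11, stromelysin 3, had 443, 349.6 and 324 and 409, 286 and 363, and its adjusted p for culture number was 0.14 (limma F-test). The log2 differences between genotypes were -0.14, -0.19 and -0.08 for Mmp19, Mmp23 and Mmp11.

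Membrane-type MMPs are held at the cell surface, where MMP14 activates the precursor of MMP2. Mmp16 had 1213, 226 and 282 in wild type and 1102, 326 and 276 in Zmpste24-/-, and number 1 was 4.19-fold number 2 and 4.14-fold number 3 (adjusted p = 9.8e-05, limma F-test). Mmp24 had 253, 147 and 133 and 229, 87.8 and 102, at 2.05-fold and 2.06-fold. It had the largest difference between genotypes in this class, -0.37 on the log2 scale (SE 0.16 with the block, unadjusted p = 0.0511, limma), and was lower in all 3 pairs. A second, dimmer Mmp24 probe set gave 0.19 between genotypes and was not higher in number 1. Mmp14 had 8764, 6771 and 6337 and 9006, 6140.4 and 6345, a difference of 1.38-fold and 1.40-fold between number 1 and the others (adjusted p = 0.0010, limma F-test). Mmp17 did not pass for culture number (adjusted p = 0.76, limma F-test), with 155, 174 and 178 and 149, 132 and 161.

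The inhibitor genes did not move together. Timp1, which is X-linked and encodes a secreted inhibitor of most MMPs, had 8176, 13414 and 12547 in wild type and 7639, 13797 and 11839 in Zmpste24-/-. It was lowest in both cultures numbered 1, with number 2 at 1.72-fold and number 3 at 1.54-fold of number 1 (adjusted p = 6.8e-05, limma F-test). In numbers 2 and 3 the sex of the embryos cannot be told apart from genotype, and its part in the Timp1 values was not tested. Timp3, the inhibitor that binds to the matrix and also blocks ADAM17, went the other way, with 6763, 3837 and 4445 and 7669, 4485 and 4688, or 1.73-fold and 1.58-fold higher in number 1 (adjusted p = 1.4e-04, limma F-test). Between genotypes Timp3 was higher in Zmpste24-/- in all 3 pairs by 0.18, 0.22 and 0.08, and its 3 other probe sets gave mean differences of 0.17, 0.19 and 0.20. The dimmest of these did not differ between culture numbers (adjusted p = 0.90, limma F-test), unlike the other two. The adjusted p of Timp3 between genotypes was 0.499 with the block (limma). Timp1 differed by -0.05 and Timp2 by 0.05 between genotypes.

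Timp2, whose product both inhibits MMPs and helps MMP14 to activate MMP2, shows how far the choice of probe set matters. Its brightest probe set had 18081, 15664 and 14779.9 in wild type and 17654, 16897 and 15641 in Zmpste24-/-, or only 1.10-fold and 1.17-fold in number 1 over numbers 2 and 3. All 6 Timp2 probe sets passed the limit on dim signals and all were higher in number 1. The fifth in brightness had 3741, 1288 and 1043 in wild type and 2856, 893 and 1035 in Zmpste24-/-, or 3.03-fold and 3.18-fold, and its adjusted p was 6.9e-05 (limma F-test). By genotype the probe sets ranged from -0.31 to 0.07 on the log2 scale. Between culture numbers the brightest probe set had the smallest difference of the 6, and its call (adjusted p = 0.021, limma F-test) was lost in 6 of the alternative settings, among them median centring of the arrays (0.28).

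Among the ADAMTS genes, Adamts1, Adamts4, Adamts5 and Adamts9 encode proteases that cut aggrecan and versican. Adamts1 had 5817, 2151 and 2457 in wild type and 5635, 2671 and 3363 in Zmpste24-/-, or 2.37-fold and 1.97-fold in number 1 over numbers 2 and 3 (adjusted p = 2.0e-04, limma F-test). Adamts4 had 428, 159.7 and 208 and 519, 229.8 and 231, at 2.43-fold and 2.16-fold. Adamts5 had 2475, 1496 and 2009.6 and 4533, 1695 and 2512, and here the wild-type culture 1 was not above the Zmpste24-/- culture 3. Its adjusted p for culture number was 0.0023 (limma F-test), the lowest pair being number 2. All 3 of these genes were among the 7 with an unadjusted p under 0.05 between genotypes with the block, at log2 differences of 0.24 (SE 0.09), 0.30 (SE 0.13) and 0.46 (SE 0.12), and adjusted p of 0.537, 0.554 and 0.409 (limma). Adamts5 was higher in Zmpste24-/- in all 3 pairs (0.87, 0.18 and 0.32), and its 2 other tested probe sets gave 0.61 and 0.53. In those probe sets both cultures numbered 1 were above all others. Adamts4 was also higher in all 3 pairs, and Adamts1 in 2 of 3. The second Adamts4 probe set gave 0.0074 between genotypes (unadjusted p = 0.965 with the block, limma) and was lower in Zmpste24-/- in pair 1, at 183 against 212.

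Adamts9 had probe sets that disagreed. The brightest had 1258, 337 and 571 in wild type and 1185, 502 and 675 in Zmpste24-/-, with a genotype difference of 0.23, and the dimmer probe sets gave 0.47 and -0.32. The brightest was higher in number 1, by 2.91-fold and 1.96-fold (adjusted p = 4.4e-04, limma F-test). The next was highest in number 3 (adjusted p = 0.034) and the dimmest had an adjusted p of 0.95 (limma F-test). Adamts10, a protease linked to fibrillin microfibrils, had 605, 280.1 and 237 and 311, 208 and 264. Its genotype difference of -0.39 (SE 0.19 with the block) was the lowest of the 35 genes, and the pairs gave -0.93, -0.40 and 0.14, so 1 of 3 went the other way. Adamts6 was lowest in number 1, at 126, 256 and 277 and 123, 181 and 243 (adjusted p = 0.0072, limma F-test). Adamts7, Adamts12 and Adamts15 did not pass for culture number, with adjusted p of 0.61, 0.31 and 0.12 (limma F-test). Adamts15 had means of 69.2, 34.8 and 32.4 in numbers 1, 2 and 3. It passed the limit on dim signals only through number 1. Adamts12 had 703, 911 and 847 and 937, 835 and 1193, a genotype difference of 0.26 that was positive in 2 of 3 pairs.

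ADAM genes had small genotype differences by their brightest probe sets, from 0.0071 for Adam9 to 0.14 for Adam12, all positive and none called. The dimmer tested probe sets gave 0.10 and -0.26 for Adam10 and -0.0090, -0.13 and 0.10 for Adam15. Those of Adam12, Adam17 and Adam19 were positive. Adam12, which is expressed in mesenchymal and fusing muscle cells, had 688, 2066 and 2053 in wild type and 969, 1988 and 2036 in Zmpste24-/-. Both cultures numbered 1 were lowest, with number 2 at 2.45-fold and number 3 at 2.47-fold (adjusted p = 2.6e-04, limma F-test). Adam19 followed the same pattern at 1.63-fold and 1.69-fold, with 1693, 2701 and 3006 and 1849.9, 3062 and 2991. The sheddase genes Adam10, Adam15 and Adam17 were higher in number 1, by 1.25-fold, 1.60-fold and 1.49-fold over number 2 and by 1.13-fold, 1.57-fold and 1.41-fold over number 3, with adjusted p of 0.034, 0.0056 and 0.0051 (limma F-test). Adam17, which releases tumour necrosis factor, was higher in Zmpste24-/- in each pair by 0.12, 0.15 and 0.10 (SE of the mean 0.08 with the block, adjusted p = 0.687, limma), and its dimmer probe sets gave means of 0.07 and 0.0024. Adam9 was the steadiest of the class, with 6824, 6522 and 6867 and 6663, 6649 and 7000.3.

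The plasminogen activator genes split by enzyme. Plaur, the receptor that holds urokinase at the cell surface, had 868, 4059 and 4146 in wild type and 693, 4580.4 and 3879.5 in Zmpste24-/-. It had the smallest adjusted p of the 35 genes for culture number (1.3e-05, limma F-test), with number 2 at 5.53-fold and number 3 at 5.14-fold of number 1. Plau, urokinase itself, had 179.8, 317 and 455 and 152, 356 and 473, lowest in number 1 and highest in number 3 (adjusted p = 5.9e-04, limma F-test). Plat, the tissue-type activator, was highest in number 1, with 3982, 2017 and 1564 and 2775, 1418 and 1407, or 1.97-fold and 2.27-fold (adjusted p = 2.2e-04, limma F-test). Plat also had the smallest unadjusted p of the 35 genes between genotypes with the block, 0.00266. It was lower in Zmpste24-/- in each pair, by -0.52, -0.50 and -0.15 on the log2 scale, for a mean of -0.39 (SE 0.09). Its adjusted p was 0.341 with the block (limma), and the dimmer of its 2 probe sets gave -0.0042. Plau and Plaur differed by -0.0032 and -0.08 between genotypes.

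HtrA1 and HtrA3 are secreted serine proteases that cut fibronectin, proteoglycans and growth factor binding proteins. Htra1 had 5172, 3717 and 3300.4 in wild type and 5360.4, 2623 and 2720.2 in Zmpste24-/-, and number 1 was 1.66-fold number 2 and 1.75-fold number 3 (adjusted p = 0.0016, limma F-test). Between genotypes it differed by -0.24 (SE 0.10 with the block, adjusted p = 0.542, limma), with pairs at 0.05, -0.50 and -0.28, and its second probe set also gave -0.24. Htra3 had 382, 127 and 124 and 336, 109 and 125, at 3.04-fold and 2.89-fold (adjusted p = 4.2e-04, limma F-test). Of the dimmer Htra3 probe sets, neither passed for culture number.

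Across the set, the test of culture number was an F-test over all 3 numbers in a fit with genotype, so each number has 2 arrays. It called 28 of 35 genes (background 41.6% and 47.0%, as above), Mmp9 among them, which passed the limit on dim signals only through numbers 2 and 3. Among the 28, both arrays numbered 1 were above the other 4 for 20 genes (background 21.2%, and 24.6% of brightest probe sets) and below them for 7 (background 18.5% and 20.8%). Adamts5 was the remaining one by its brightest probe set, while in its dimmer tested probe sets both arrays numbered 1 were above the other 4. Counted without the test, number 1 was above for 22 genes and below for 8 (background 31.2% and 27.2%). The 22 include Adamts15, which passed the limit on dim signals only through number 1, and the 8 include Mmp9. Number 2 was above the other 4 for 1 gene and below for 4 (background 8.02% and 11.5%), and number 3 above for 2 and below for 3 (background 7.68% and 5.95%). When number 2 was tested against number 3 alone, a comparison added after the data were seen, 0 of 35 genes were called (smallest adjusted p = 0.178, limma) and 6 had an unadjusted p under 0.05, against a background of 0.0592% called and 7.47% under 0.05. Without the arrays numbered 1, no call for culture number was left among the 35 genes.

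**Figure D4:**
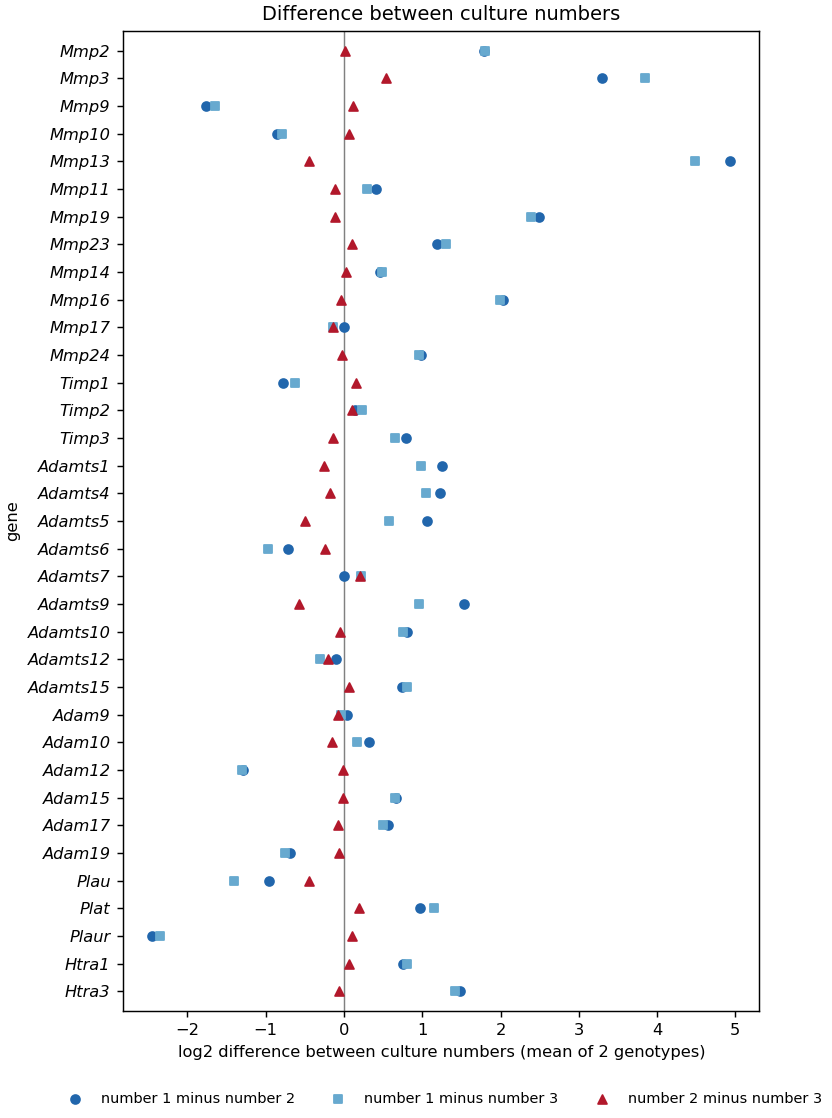
The horizontal axis is the log2 difference between culture numbers, each number being the mean of its WT and its Zmpste24-/- array, and each row is 1 of the 35 tested genes. Circles and squares (number 1 minus numbers 2 and 3) lie close together and reach 4.94 for Mmp13 and -2.45 for Plaur, while triangles (number 2 minus number 3) stay between -0.58 and 0.54.

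Markers of other cells and of cell division moved with the culture numbers as well. All 9 tested mitosis genes differed between numbers and were lower in number 1 (background 20.8% of brightest probe sets). Their summed signal was 5806 to 5865 in number 1 against 20197 to 23454 in the other 4. Of 11 tested macrophage markers 10 differed, all higher in number 1 (background 24.6% of brightest probe sets). The sum over 12 markers was 7169 and 13946 in number 1 against 1294 to 2055 elsewhere. C1qa, a complement gene of macrophages, had 380.0, 9.02 and 8.67 in wild type and 1008, 3.40 and 3.18 in Zmpste24-/-, and Lyz2, lysozyme, had 4219, 593 and 871 and 7191, 463 and 474. C1qa passed the limit on dim signals only through number 1 and was at most 9.02 outside it. C1qc (means of 5.80 and 30.9 in numbers 2 and 3) and Ptprc (16.3 and 22.0) also passed only through number 1. The count of 10 thus includes genes that were tested only because of number 1. The macrophage markers Csf1r and Cd68 had signals of at least 157 in all 6 cultures. Chondrocyte and osteoblast markers summed to 1548 to 1881 in number 1 and 1135 to 1975 in the others. In bulk RNA fewer cells of a type and less RNA per cell cannot be told apart, and the part of these cells or of cell division in the protease differences was not tested.

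Related genes outside the set were listed by family. Of 20 other tested protease inhibitors and regulators, 15 differed between culture numbers (background 47.0% of brightest probe sets, here and for the lists that follow) and 0 between genotypes. Among the 15, A2m passed the limit on dim signals only through number 1, and Serpinb2 only through numbers 2 and 3. Reck, a membrane-anchored inhibitor of MMPs, had 2390.1, 520.1 and 536 in wild type and 2322, 568 and 670.1 in Zmpste24-/-, or 4.33-fold and 3.91-fold in number 1 over numbers 2 and 3 (adjusted p = 2.1e-05, limma F-test). In this list the smallest genotype p without a block belonged to Serpinf2, Serpinf1 and Adamtsl5, at log2 differences of -0.91, -0.08 and -0.18, none of which passed. Serpinf2 was dim, with 29.7, 72.9 and 54.3 in wild type and 7.07, 82.0 and 2.96 in Zmpste24-/-. Its Zmpste24-/- mean of 30.7 lay below the limit of 39.4, which it passed only through wild type, and pair 2 went the other way (0.14). Of 19 other pericellular proteases, 15 differed between numbers and 0 between genotypes. Those 15 include Cpz, which passed the limit on dim signals only through number 1. Mep1a, Fap and Plgrkt led by genotype p, at -0.37, 0.28 and -0.17. Of 7 other ADAM and ADAMTS genes tested, 2 differed between numbers (Adam22 and Adamts3, both higher in number 1). Of 4 tested proprotein convertases, which cleave the precursors of membrane-type MMPs and ADAMs, 0 differed between numbers (adjusted p of 0.12 to 0.93, limma F-test) and Furin had 1107, 878 and 824 and 926, 813 and 814. Mmp7 was the only other MMP bright enough to test, with an adjusted p of 0.82 for culture number (limma F-test).

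The matrix substrates also varied by culture number, in 16 of 23 tested genes (background 47.0% of brightest probe sets). Of the 23, 10 were called and lower in number 1 (background 20.8%) and 5 called and higher (background 24.6%). Bcan, among those 5, passed the limit on dim signals only through number 1. The small proteoglycan genes Lum and Dcn were among the higher ones, at 14.8-fold and 9.40-fold over number 2, while the cartilage proteoglycan Acan had 38.9, 148 and 141 in wild type and 42.2, 156 and 122 in Zmpste24-/-. Col1a2, which encodes a chain of fibrillar collagen I, had 20437, 21793 and 20062 and 20380.4, 19556 and 20515 and an adjusted p of 0.93 for culture number (limma F-test). Between genotypes 0 of 23 were called, and the smallest p without a block belonged to Nid2, Vcan and Col2a1, at 0.51, 0.27 and 0.95 on the log2 scale.

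**Figure D5:**
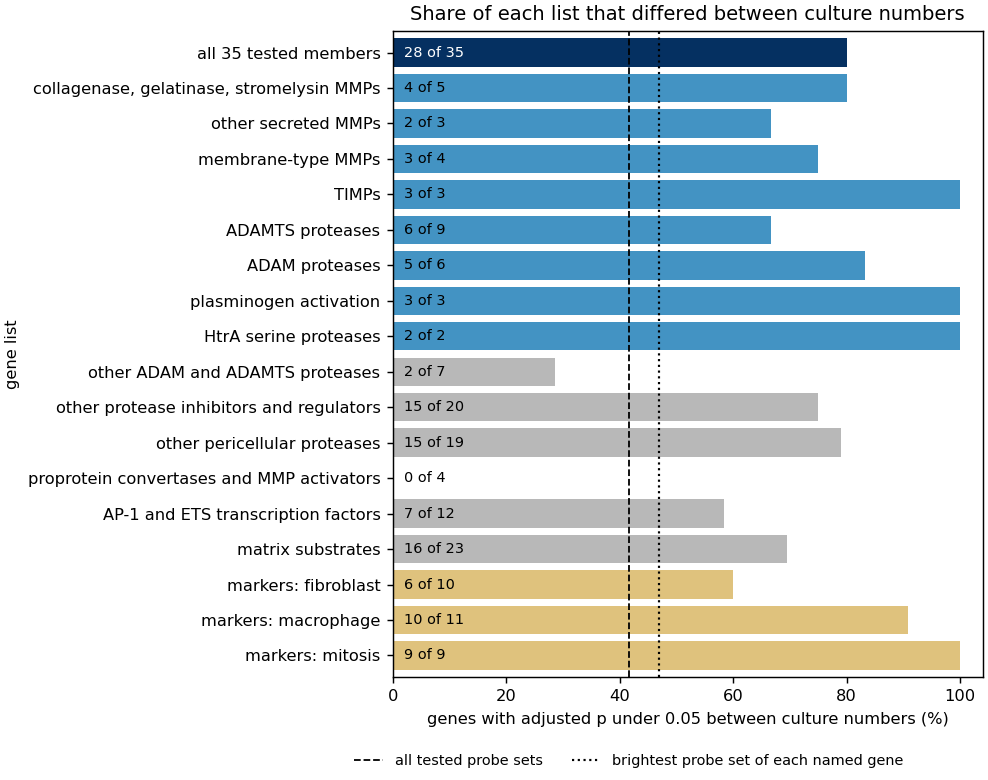
Bars give the percentage of tested genes in each list with an adjusted p under 0.05 for culture number, with counts printed on the bars; blue bars are the protease and inhibitor classes, grey bars related genes and ochre bars markers. The dashed and dotted lines are the backgrounds of 41.6% of all tested probe sets and 47.0% of the brightest probe sets of named genes; all 8 classes lie above both lines, and the proprotein convertases are at 0 of 4.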

How the data were processed

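The 6 arrays were read as the signal intensity that the authors deposited, made per the labels' protocols and the submitters' processing notes with GCOS (version not given in the sources used here); the deposited intensities of every array have a trimmed mean of 500, so they are already scaled. The table holds 45101 probe sets, of which 34945 pair with 1 symbol, 932 with several and 9160 with none; no name was taken from a probe set with several. Median signals of 56.1 to 70.3 per array and the number of arrays limit the precision.

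From these values log2(signal + 16) was computed, so fold changes of dim genes on that scale are understated; folds between culture numbers are ratios of mean signals. The dimmest 40% of probe sets by mean over all 6 arrays were left out, and 27022 were fitted with limma 3.58.1 (R 4.3.3; lmFit and eBayes with an intensity trend, Benjamini-Hochberg adjustment over all of them, threshold 0.05). Genotype was fitted without and with the replicate number as a block. Deviations from the group means of same-numbered cultures correlated at 0.83, 0.59 and 0.57, so the numbers were taken to pair the cultures; numbers 2 and 3 also correlated with each other across genotypes (0.55 and 0.49). Culture number was tested by limma's moderated F-test in a fit with genotype.

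The genes and lists were chosen with earlier results of these data known, so no list is independent evidence. Genes named with values in every array were the 12 with the smallest p for culture number, the largest difference between genotypes in either direction in each class, those whose probe sets disagree, up to 3 per related list by genotype p and up to 4 per marker list by p for culture number. Further genes of the set and Fosl1, Jun, Ets1, Etv4, Junb, Ets2, Reck, Furin, Acan, Col1a2, Csf1r, Cd68, C1qc, Ptprc, Serping1, Spint2, Cpz, Sp7, Adam22 and Adamts3 were named after their values were seen. The same holds for A2m, Serpinb2, Bcan and Comp. Alternatives covered the pseudocount, the filter, scaling, array weights, the intensity trend, the threshold, averaging the probe sets of each gene, and leaving out arrays. Promoter windows are RefSeq's, of assembly GRCm38.p6.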

Additional observations from a re-analysis of the deposited data

How the results depend on the processing

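Genotype calls among the 35 protease and inhibitor genes stayed at 0 in all settings tried. The count of all called probe sets, 0 without a block, was 5 with the replicate block, 1 with array weights, 20 in replicates 2 and 3 alone, and 69 there with the replicate block, an alternative chosen after seeing the data; without 1 array it was 0 to 4, the 4 being without WT replicate 1. The replicate block changed no other call. The number of genes whose genotype ranges do not overlap was 13 in replicates 2 and 3 alone and 0 to 9 without 1 array. Their median log2 difference was -0.0735 to 0.135 without 1 array, the extremes being without Zmpste24-/- replicate 1 and without WT replicate 1. For culture number, the called features were 6504 of 16613 when the probe sets of each gene were averaged (fewer features), 8345 to 10815 of 27022 without 1 array, and 16 for numbers 2 and 3 alone. The genes of the set called were 23 to 28 without 1 array and 0 for numbers 2 and 3 alone, also chosen after seeing the data. With the dimmest 60% of probe sets left out, 27 of 32 tested genes were called, against 10173 of 18015 probe sets. Of the 28 called, 18 passed in every setting fixed at the outset; Adam10 was lost in 9, Adamts10 in 7, Timp2 in 6, and the other seven in 1 or 2; the cause was not tested.

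Precision is limited by 3 arrays per genotype and 2 per number. Timp4 was too dim to be tested, Mmp9 was dim in number 1, and Adamts15 was dim in numbers 2 and 3. Wild-type cultures 2 and 3 differ from all others in Xist and Eif2s3y.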

Other observations

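Some matrix and inhibitor genes outside the set differed in the same direction in every pair of genotypes, though none passed. Of 23 tested matrix substrates, 4 were higher and 4 lower in Zmpste24-/- in every pair. Of 20 other tested protease inhibitors and regulators, 2 were higher and 4 lower. These counts were near the background of 15.8% higher and 16% lower, so the genes named here are examples only. Col2a1, which encodes the collagen of cartilage, had signals of 159.7, 517 and 369 in wild-type cultures 1, 2 and 3 and of 279.7, 888 and 963 in Zmpste24-/-. It was higher in Zmpste24-/- in each pair, by 0.75, 0.76 and 1.35 on the log2 scale, and its adjusted p was 0.174 with the replicate block (limma). Nid2, a basement membrane linker, had 330.5, 499 and 423 in wild type and 421, 655 and 759 in Zmpste24-/-, with an adjusted p of 0.373 with the block (limma). Spint2, an inhibitor of surface serine proteases, was lower in Zmpste24-/- in each pair, by -0.87, -0.55 and -0.11, with an adjusted p of 0.430 with the block (limma).

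Differences between culture numbers were also large for some related genes. Serping1, the inhibitor of complement C1, had 3124, 466 and 530.1 in wild type and 3756, 546 and 595 in Zmpste24-/- (adjusted p = 6.8e-06, limma F-test). Cpz, a carboxypeptidase of the extracellular matrix, had 167 and 190.3 in the cultures numbered 1 and at most 5.13 in the other 4. It passed the limit on dim signals only through number 1.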
